A study of Arabidopsis thaliana with 11 samples.

Results

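Guard cells were compared with other cells of the leaf surface of Arabidopsis thaliana, by RNA sequencing of protoplasts (cells freed of their walls) that had been sorted for a fluorescent marker. The guard side held 4 libraries. FGF, in 2 libraries, was sorted on FAMAp::GFP-FAMA and is labelled as mature guard mother cells with young guard cells. E1728G, in 2 libraries, was sorted on the enhancer trap E1728::GFP and is labelled as mature guard cells. The other side also held 4 libraries. ML1Y, in 2 libraries, was sorted on ML1p::YFP-RCI2A, a marker of the whole epidermis, and MG, in 2 libraries, on MUTEp::nucGFP, labelled as late meristemoids with young guard mother cells. All 4 lines were in the Col background, and all protoplasts came from the aerial parts of 10-day-old seedlings after 2 h of wall digestion. These 8 of the 11 libraries of the series were used, and 29093 of its 33602 genes reached the floor, about 10 on the linear scale, in at least 2 of them. The last gene inside the floor had a second highest log2 value of 3.3201 and the first outside it had 3.3198. The values are on a log2 scale. They are not per length, so they compare one gene between libraries and not one gene with another.

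Guard cells are the paired cells around each stomatal pore. They open the pore when plasma membrane proton pumps drive potassium and anions into the cell, and they close it when abscisic acid or carbon dioxide triggers the release of these ions. They arise when a meristemoid becomes a guard mother cell, under the transcription factor MUTE, and that cell then divides once into a pair of guard cells under FAMA. Guard cells of Arabidopsis are also known for large amounts of myrosinase, an enzyme that breaks down glucosinolates.

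Several features of the groups limit the comparison. The ML1 promoter is active in the whole epidermis, so ML1Y can hold guard cells and their precursors. Young guard mother cells carry the MG label and mature ones the FGF label. The FGF line carries a GFP-FAMA fusion whose transcript the deposited values do not separate from native FAMA. The 4 libraries of a side came from 2 lines, and nothing in the labels says that libraries of 1 line came from separate plantings, so p-values measure the spread between these libraries. In sorted bulk samples, fewer cells of a type and less RNA per cell cannot be told apart.

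The genes behind the markers were read first. FAMA (AT3G24140) stood at 14.03 and 14.9 in FGF, 11.5 and 10.98 in E1728G, 8.88 and 8.3 in ML1Y, and 10.6 and 9.82 in MG. All 4 guard libraries were above all 4 others, but FGF and E1728G lay far apart, and the difference of 3.45 ± 0.88 (log2, SE) had an adjusted p of 0.0834 in the 2-group fit. With a mean for each of the 4 lines it passed (adjusted p = 0.00575). It also passed against each background, by 4.26 ± 0.49 against ML1Y (adjusted p = 0.00207) and 2.64 ± 0.49 against MG (adjusted p = 0.0314). Fits with line means, here and in the contrasts below, take their error only from the spread between libraries of 1 line. The gap between FGF and E1728G does not count as spread in them. MUTE (AT3G06120) stood at 7.65 and 9.86 in MG and between 3.77 and 4.88 in the other 6 libraries. Against MG alone the guard sorts differed by -4.49 ± 0.58 (log2, SE, adjusted p = 0.013). Its 2-group difference of -2.38 ± 1.02 had an adjusted p of 0.294, and 0.024 with a mean for each line. ATML1 (AT4G21750), an epidermal homeodomain factor, differed by -0.86 ± 0.43 (adjusted p = 0.379) and SPCH (AT5G53210), which starts the lineage, by 0.54 ± 0.54 (adjusted p = 0.693), with overlapping groups for both.

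Libraries of the 2 guard lines resembled each other. E1728G replicate 2 had its highest rank correlation over genes with FGF replicate 1 (0.931), above that with its own replicate (0.893), and MG replicate 1 was closest to FGF replicate 1 (0.901). On the first principal component, which held 31.2% of the variance, the guard libraries lay between 50.7 and 85.5, MG at -28.6 and -13.4, and ML1Y at -93.4 and -109. MG replicate 2 stood apart on the second component (22.2% of the variance), at -128. Photosynthesis transcripts, which mark mesophyll, were far higher in ML1Y than in any other line. The summed level of 26 of them (log2 of the sum) was 18.92 to 19.34 in ML1Y and 14.62 to 15.3 in the other 6 libraries, and the median difference between MG and ML1Y was -4.30.

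In the 2-group limma fit, 303 genes were higher in the guard sorts (1.04% of the 29093 tested) and 229 were lower (0.787%), at an adjusted p under 0.05, together 1.83%. The called rises spanned 0.96 to 4.21 on the log2 scale with a median of 2.32, and the called falls -1.03 to -4.36 with a median of -2.21, while the median over all genes was -0.01. Over all genes, 1523 (5.23%) had all 4 guard libraries above all 4 others and 1313 (4.51%) had them below, together 9.75%. Of the called genes, 302 of the 303 higher and all 229 lower were separated in this way.

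**Figure D1:**
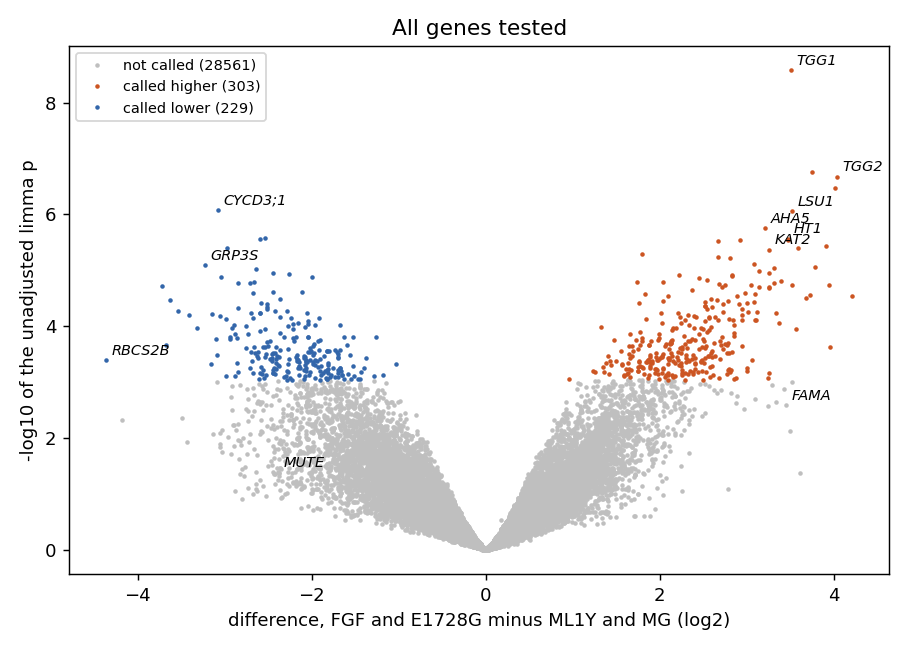
Each of the 29093 genes tested is a point, with the guard minus other difference (log2) on the horizontal axis and the negative log10 of the unadjusted limma p on the vertical axis. The 303 genes called higher and 229 called lower are coloured. TGG1 has the smallest p, and FAMA and MUTE lie below the called genes.

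Over the 23 lists of genes described below, 338 genes were tested, of which 14 rose (4.14%) and 7 fell (2.07%). The count of calls in each list is to be read against the 1.04% of all genes that rose and the 0.787% that fell.

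The number of calls moved with single libraries. Without E1728G replicate 2 it fell to 34 higher and 17 lower, and without ML1Y replicate 2 to 67 and 35. Leaving out MG replicate 2 gave 321 higher and 565 lower instead. The remaining 5 libraries gave between 74 and 156 higher and between 41 and 130 lower when each was left out. The sign did not change for any of the 532 called genes in these 8 fits. For the 531 of them whose sides were separated, this was fixed in advance. In every one of the 8 fits 42 genes (30 higher and 12 lower) passed. Of the 43 called genes named by rule, 11 kept their call without E1728G replicate 2, 25 without E1728G replicate 1, 24 without FGF replicate 1, 27 without FGF replicate 2, 24 without ML1Y replicate 1, 21 without ML1Y replicate 2, 31 without MG replicate 1 and 41 without MG replicate 2. Below, the number of these 8 fits in which a gene passed is given with its call, with the highest adjusted p among them where it was lost. The 15 largest rises and 15 largest falls were named only from genes whose sides did not overlap. For them the lack of overlap is the rule and not a result.

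**Figure D2:**
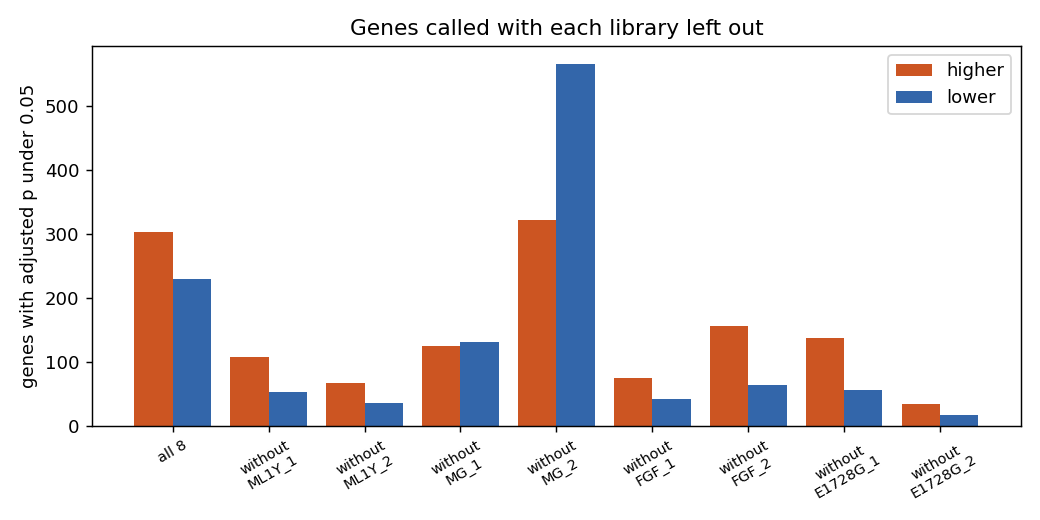
Bars give the number of genes with adjusted p under 0.05 that were higher (orange) or lower (blue) in the guard sorts, with all 8 libraries and with each left out in turn. The count is lowest without E1728G replicate 2 (34 and 17), and the count of lower genes is highest without MG replicate 2 (565).

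TGG1 and TGG2, both myrosinases, were higher in every guard library. TGG1 (AT5G26000), the main myrosinase of leaves, stood at 19.98 and 20.72 in FGF, 20.85 and 20.44 in E1728G, 16.98 and 16.71 in ML1Y, and 17.27 and 16.98 in MG. The 2 sides were far apart with little spread inside either, at 20.5 ± 0.38 against 16.99 ± 0.23 (SD, n = 4 each). TGG1 rose by 3.51 ± 0.19 (log2, SE), or 11.4-fold on the deposited scale (adjusted p = 7.62e-05, passing in 8 of 8 fits).

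TGG2 (AT5G25980), the second leaf myrosinase, stood at 15.49 and 15.52 in FGF, 16.5 and 16.45 in E1728G, 11.95 and 12.42 in ML1Y, and 11.84 and 11.6 in MG. It rose by 4.04 ± 0.34 or 16.4-fold (adjusted p = 0.00204, passing in 8 of 8 fits). E1728G lay above FGF, by a difference that did not pass its own test (FGF minus E1728G -0.97 ± 0.35, adjusted p = 1). TGG1 and TGG2 are close copies, and no source used here says how the counting divided reads between them. Of the 11 myrosinases and associated proteins tested, these 2 rose and 0 fell, and the median difference was 0.25. NSP1 and NSP5, nitrile-specifier proteins that direct glucosinolate breakdown, and MVP1, a myrosinase-associated protein, differed by 1.41, 1.87 and 1.42 with adjusted p of 0.137, 0.0637 and 0.137. For all 3 the guard libraries lay above the others, but against MG alone the differences were 0.92, 1.07 and 0.98, and none passed.

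**Figure D3:**
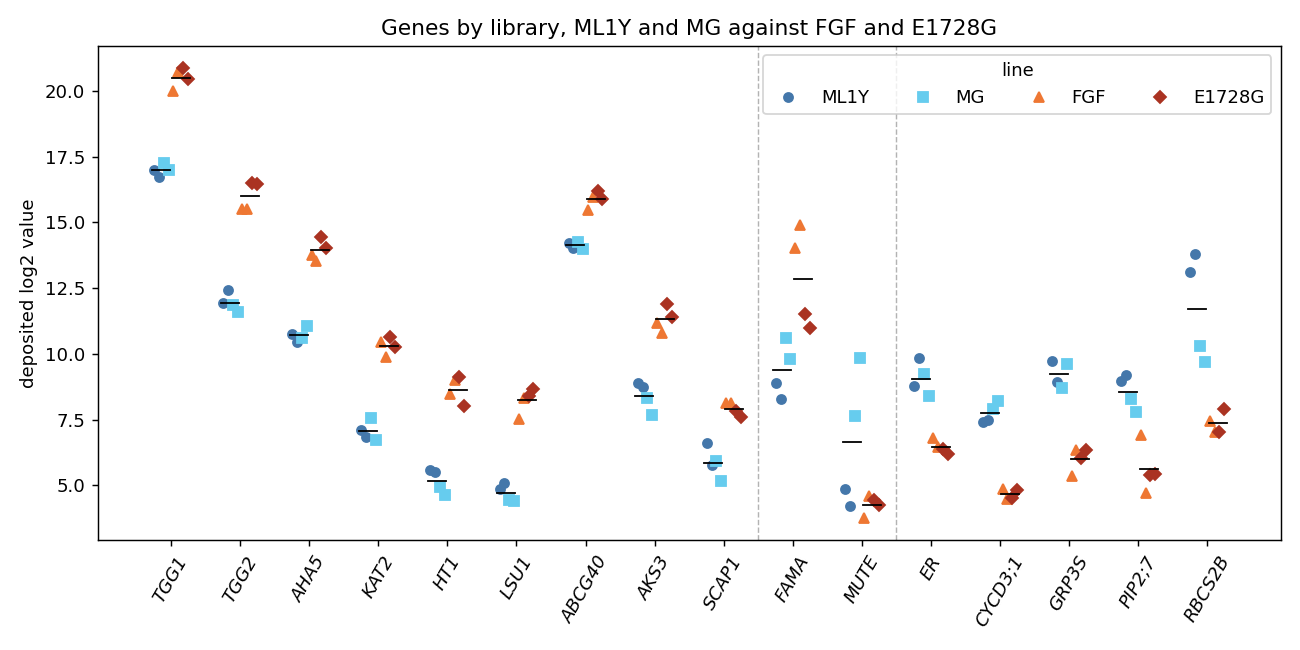
Points give the deposited log2 value of 16 genes in each of the 8 libraries, by line, and black lines give the mean of each side. TGG1 to SCAP1 were called higher and ER to RBCS2B lower in the guard sorts. FAMA and MUTE, between the dashed lines, were not called in the 2-group fit.

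Ion transport genes of stomatal opening were represented by a few strong members. KAT2 (AT4G18290), an inward-rectifying potassium channel, stood at 10.45 and 9.89 in FGF, 10.63 and 10.26 in E1728G, 7.09 and 6.84 in ML1Y, and 7.55 and 6.71 in MG. No library of either side came near the other. KAT2 rose by 3.26 ± 0.38 (9.57-fold, adjusted p = 0.00725, 8 of 8 fits) and was the 1 of 7 potassium channels called. GORK, the outward-rectifying channel that releases potassium, differed by 2.12 ± 0.56 (adjusted p = 0.0957). Its FGF replicate 2, at 6.73, lay next to ML1Y at 6.59 and 6.67, and the other 3 guard libraries lay between 9.14 and 9.25. KAT1, the close relative of KAT2, overlapped between the sides (difference 1.34 ± 0.67, adjusted p = 0.379).

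AHA5 (AT2G24520), a plasma membrane proton pump, stood at 13.74 and 13.53 in FGF, 14.43 and 14.02 in E1728G, 10.77 and 10.44 in ML1Y, and 10.61 and 11.05 in MG. It rose by 3.21 ± 0.34 (9.26-fold, adjusted p = 0.00678, 8 of 8 fits), with wide space between the sides. AHA1 (AT2G18960), the pump with the 4 guard libraries between 13.83 and 14.13 and the others between 12.25 and 12.92, rose by 1.43 ± 0.28 (adjusted p = 0.0349), but passed in 1 of 8 fits (highest adjusted p 0.111). Its call was also lost under quantile normalization (adjusted p = 0.0848), with no filter on low values (0.0572) and with 5 lines and 11 libraries (0.244). AHA2 differed by 1.33 ± 0.37 (adjusted p = 0.107). These 2 were the calls among 8 genes of proton pumping and blue light sensing, whose median difference was 0.04. The photoreceptors PHOT1 and PHOT2 differed by -0.56 and 0.10 (adjusted p = 0.635 and 0.939). CRY2, another blue light receptor, was lower in every guard library, at 8.5 to 9.12 against 9.85 to 11.15, with an adjusted p of 0.0654.

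Of the 12 anion channels and transporters tested, 0 passed in either direction, although 11 of 12 had a positive difference and the median was 0.91. SLAC1, the anion channel of stomatal closure, stood at 10.77 and 9.97 in FGF, 11.8 and 10.02 in E1728G, 8.53 and 8.65 in ML1Y, and 9.22 and 9.35 in MG. The sides did not overlap, and the difference of 1.70 ± 0.49 had an adjusted p of 0.122. The nitrate transporter NRT1.1 differed by 2.34 ± 0.61 (adjusted p = 0.0925), by 3.29 against MG (adjusted p = 0.0229) and by 1.39 against ML1Y (adjusted p = 0.189).

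HT1 (AT1G62400), a protein kinase that holds back stomatal closure at low carbon dioxide, stood at 8.46 and 9 in FGF, 9.11 and 8 in E1728G, 5.58 and 5.52 in ML1Y, and 4.94 and 4.65 in MG. It rose by 3.47 ± 0.38 (11.1-fold, adjusted p = 0.00678, 8 of 8 fits). The lowest guard library, at 8, was well above the highest other one, at 5.58. HT1 was the 1 call among 8 genes of the carbon dioxide response. MPK12, a kinase of the same response, was higher than in ML1Y (2.41, adjusted p = 0.0467) but differed from MG by 0.18 (adjusted p = 0.946), where MG replicate 2, at 9.68, was above all guard libraries.

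**Figure D4:**
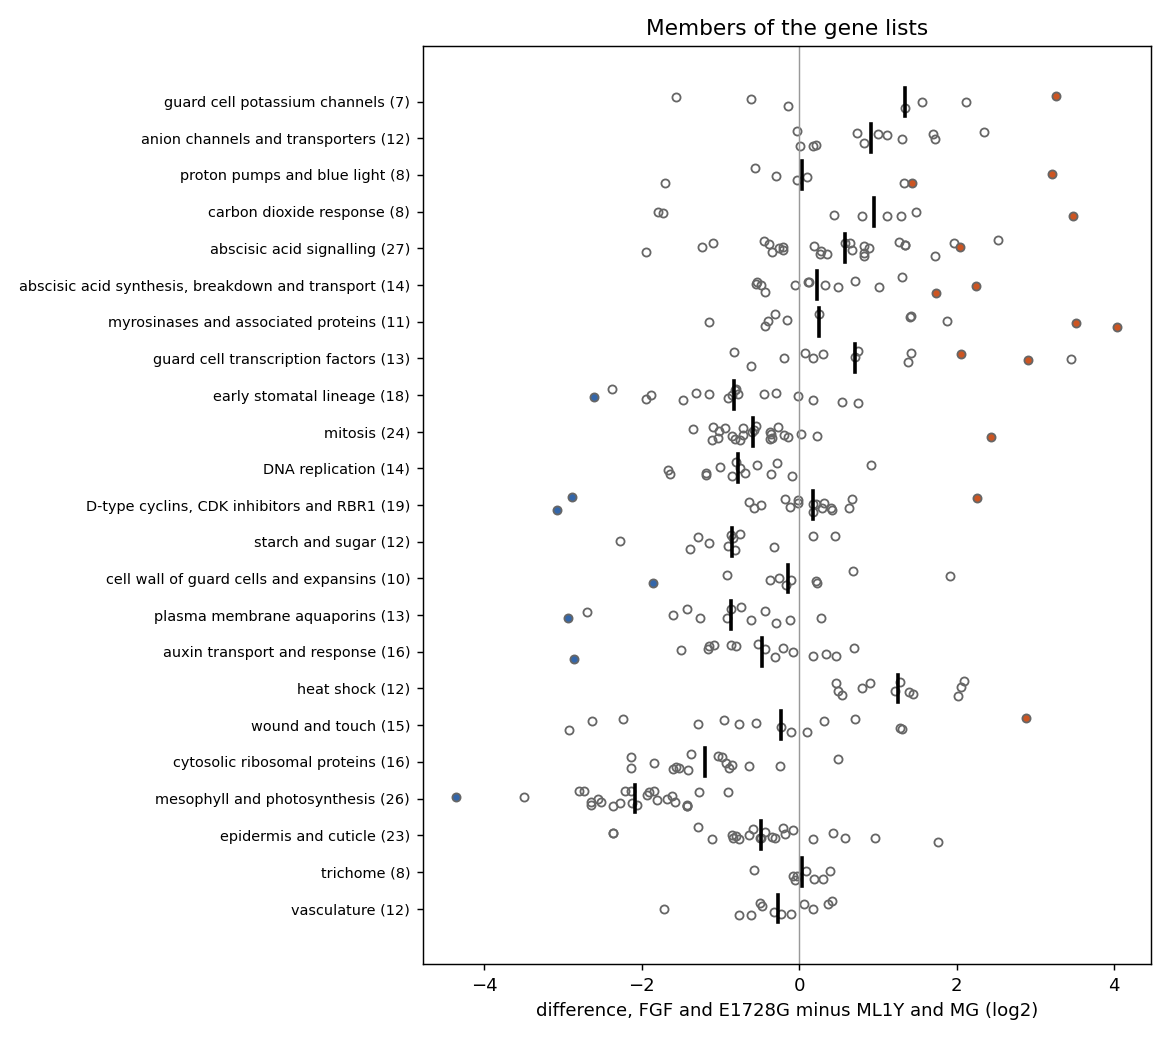
Each point is a tested gene of 1 of the 23 lists, placed by its guard minus other difference (log2). Orange and blue points were called higher and lower, open points were not called, black bars are list medians, and the number tested is in parentheses. Photosynthesis and cytosolic ribosomal proteins lie mostly left of 0 and heat shock genes lie right of it.

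In the abscisic acid lists, 1 of 27 signalling genes and 2 of 14 genes of synthesis, breakdown and transport rose, and 0 fell. Over all genes, 1.04% rose and 0.787% fell. ABCG40 (AT1G15520), an importer of abscisic acid, stood at 15.47 and 15.95 in FGF, 16.19 and 15.87 in E1728G, 14.22 and 14.02 in ML1Y, and 14.27 and 14 in MG. It rose by 1.74 ± 0.23 (3.34-fold, adjusted p = 0.0111, 7 of 8 fits, 0.0532 without E1728G replicate 2), with every guard library above every other. Its call was lost with 5 lines and 11 libraries (adjusted p = 0.217). ABA2 (AT1G52340), a dehydrogenase of abscisic acid synthesis, rose by 2.25 ± 0.46 (adjusted p = 0.0408), with guard libraries between 6.71 and 8.76 and others between 5.02 and 6.07. PYL2 (AT2G26040), a receptor, rose by 2.04 ± 0.39 (adjusted p = 0.0331), with guard libraries between 6.9 and 7.26 and others between 4.22 and 6.08. ABA2 and PYL2 each passed in 2 of 8 fits (highest adjusted p 0.12 and 0.0897). The median differences of the lists were 0.58 and 0.22. OST1, the kinase that acts on SLAC1, differed by 1.27 ± 0.57 with overlapping sides (adjusted p = 0.312).

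Among 13 guard cell transcription factors 2 rose and 0 fell, with a median difference of 0.71. AKS3 (AT2G42280), a basic helix-loop-helix factor of the family that activates KAT1, stood at 11.17 and 10.79 in FGF, 11.91 and 11.41 in E1728G, 8.91 and 8.74 in ML1Y, and 8.32 and 7.68 in MG. It rose by 2.91 ± 0.43 (7.5-fold, adjusted p = 0.0149, 7 of 8 fits, 0.0663 without E1728G replicate 2) and the sides stood well apart. Its gene overlaps others in the annotation, and no source used here says whether the counting used strand. The same limit holds for ABA2, AO1, SUE4, SRO2, ABCB4, PORB, BT5 and PRPS20. SCAP1 (AT5G65590), a Dof factor of guard cell maturation, rose by 2.06 ± 0.38 (adjusted p = 0.0296), from 5.15 to 6.63 in the other libraries to 7.6 to 8.14 in the guard libraries. It passed in 2 of 8 fits (highest adjusted p 0.0843) and not with 5 lines and 11 libraries (adjusted p = 0.0564). MYB60, which marks guard cells in mature leaves, differed by 1.38 ± 0.50 with overlapping sides (adjusted p = 0.207).

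Of 18 genes of the early lineage tested, 15 had a negative difference (median -0.83), but the median was 0.18 against ML1Y and -1.76 against MG. The 1 call was ER (AT2G26330), the ERECTA receptor kinase, which stood at 6.82 and 6.45 in FGF, 6.37 and 6.21 in E1728G, 8.76 and 9.86 in ML1Y, and 9.22 and 8.41 in MG. It fell by 2.60 ± 0.40 on the log2 scale (adjusted p = 0.0171, 7 of 8 fits, 0.0716 without E1728G replicate 2). ER differed by -2.85 from ML1Y (adjusted p = 0.0109) and by -2.35 from MG (adjusted p = 0.0513), so it passed against ML1Y alone. Against MG alone, where 0.863% of all genes were lower, 5 of the 18 were: MUTE (-4.49), the receptor-like protein TMM (-3.96), the secreted peptides EPF1 (-3.49) and EPF2 (-2.65), and POLAR (-2.87), a polarity protein. Against ML1Y these same genes differed by -0.28, 0.21, 1.19, -0.31 and 0.26, and none of those differences passed.

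In the cell cycle lists the falls were those of 2 D-type cyclins, CYCD3;1 and CYCD3;2. CYCD3;1 (AT4G34160), a D-type cyclin of proliferating cells, stood at 4.85 and 4.49 in FGF, 4.51 and 4.82 in E1728G, 7.4 and 7.49 in ML1Y, and 7.89 and 8.22 in MG. It fell by 3.08 ± 0.30 on the log2 scale, 8.47-fold (adjusted p = 0.00427, 8 of 8 fits), and the guard libraries lay close together. CYCD3;2 (AT5G67260) fell by 2.88 ± 0.49 (adjusted p = 0.0245), from 6.54 to 8.85 in the other libraries to 4.48 to 5.53 in the guard libraries, and passed in 1 of 8 fits (highest adjusted p 0.0698). CYCD3;3, the third member, differed by -0.02 ± 0.43 (adjusted p = 0.988). KRP6 (AT3G19150), an inhibitor of cyclin-dependent kinases, rose by 2.26 ± 0.42 (adjusted p = 0.0309), with guard libraries between 7.76 and 8.84 and others between 5.28 and 6.71, and passed in 2 of 8 fits (highest adjusted p 0.0871). These were the 3 calls among 19 D-type cyclins, kinase inhibitors and RBR1, a list with 10 positive differences and a median of 0.17. Both CYCD3 genes overlap other genes in the annotation.

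In the mitosis list 1 of 24 genes rose and 0 fell, and 21 of 24 had a negative difference (median -0.59). The gene that rose was CYCB2;4 (AT1G76310), a B-type cyclin, at 8.65 and 7.67 in FGF and 10.22 and 8.79 in E1728G against 6.15 to 6.78 in the other libraries. Its difference was 2.44 ± 0.51 (adjusted p = 0.0426), and it passed in 1 of 8 fits (highest adjusted p 0.114). The other B-type cyclins of the list had differences between -0.94 (CYCB1;1) and 0.23 (CYCB1;2) and none passed. In DNA replication 0 of 14 passed and 13 of 14 were negative (median -0.78). Against MG alone, where 0.863% of all genes were lower, 2 of them were: MCM2 (-2.47) and MCM7 (-2.11), subunits of the replicative helicase.

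Several enzymes that conjugate or oxidise small molecules were among the higher genes. Their families were picked from the annotation after the values were seen, so their counts are descriptions, to be read against the 1.04% of all genes that rose and the 0.787% that fell. Of 133 UDP-glycosyltransferases tested, 10 rose (7.52%) and 2 fell (1.5%). Of 254 cytochromes P450 14 rose (5.51%) and 0 fell, of 123 ABC transporters 8 rose (6.5%) and 0 fell, and of 40 glutathione transferases of the tau and phi classes 3 rose (7.5%) and 1 fell. Family medians lay between 0.10 and 0.21. Against ML1Y 11 UDP-glycosyltransferases were higher and 8 lower, and 10 and 10 cytochromes P450, where 1.32% and 4.4% of all genes were. Against MG the counts were 7 and 0, and 11 and 1, beside 0.873% and 0.863% of all genes. For ABC transporters they were 11 and 0 against ML1Y and 6 and 1 against MG, and for glutathione transferases 6 and 1, and 3 and 1.

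UGT73D1 (AT3G53150) stood at 10.84 and 10.99 in FGF, 13.86 and 10.76 in E1728G, 8.45 and 8.23 in ML1Y, and 6.96 and 6.97 in MG. The sides were apart, with E1728G replicate 1 far above the other guard libraries. It rose by 3.96 ± 0.72 (adjusted p = 0.0298) and passed in 2 of 8 fits (highest adjusted p 0.0739). GT72B1 (AT4G01070), which glucosylates phenols, rose by 3.33 ± 0.52 (adjusted p = 0.0171, 6 of 8 fits, highest 0.0683), with guard libraries between 12.52 and 13.41 and others between 8.67 and 10.87. GSTU1 (AT2G29490), a glutathione transferase, rose by 3.68 ± 0.53 (adjusted p = 0.0138, 7 of 8 fits, 0.058 without E1728G replicate 2), at 11.13 and 12.04 in FGF and 13.43 and 12 in E1728G against 7.85 to 8.97 in the others.

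Some of these genes are related copies. UGT73B2, UGT73B4 and UGT73B5 differed by 2.75, 2.1 and 1.73, and CYP89A5, CYP89A6 and CYP89A7 by 1.96, 1.97 and 1.83, as did CYP72A11, CYP72A14 and CYP72A15 with 2.31, 1.95 and 2.83. All 9 were called, but near-identical copies can share reads, so they may not be 9 separate measurements. CYP81D11 (AT3G28740) had guard libraries between 15.57 and 15.95 and others between 12.33 and 13.84 (difference 2.81, adjusted p = 0.00875). Among the ABC transporters, ABCB4 (AT2G47000), an auxin transporter of roots, rose by 3.26 ± 0.42 (adjusted p = 0.0111, 7 of 8 fits, 0.0515 without E1728G replicate 2), at 13.04 to 14.39 in the guard libraries against 10.02 to 11.3.

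The rest of the largest rises fell in other classes. AO1 (AT5G20960), an aldehyde oxidase, rose by 3.73 ± 0.53 (adjusted p = 0.013, 7 of 8 fits, 0.0582 without E1728G replicate 2), with guard libraries between 10.79 and 11.61 and others between 6.64 and 8.6. SUS3 (AT4G02280), a sucrose synthase, rose by 3.39 ± 0.45 (adjusted p = 0.0111, 7 of 8 fits, 0.0515 without E1728G replicate 2), at 11.13 to 12.59 against 7.72 to 8.84. SRO2 (AT1G23550), a relative of the stress regulator RCD1, rose by 3.31 ± 0.44 (adjusted p = 0.0111, 8 of 8 fits), at 11.01 to 12.14 against 7.59 to 8.83. CHIA (AT5G24090), a chitinase, rose by 3.37 ± 0.55 (adjusted p = 0.0195, 5 of 8 fits, highest 0.0663), at 7.29 to 9.69 against 4.11 to 5.43. For these 4 genes the sides did not overlap in any library, as the rule that named them required.

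Sulfur genes also stood on the higher side. LSU1 (AT3G49580), named for its response to low sulfur, stood at 7.54 and 8.31 in FGF, 8.39 and 8.67 in E1728G, 4.86 and 5.1 in ML1Y, and 4.45 and 4.42 in MG. It rose by 3.52 ± 0.34 (11.5-fold, adjusted p = 0.00427, 8 of 8 fits). SUE4 (AT3G55880), linked to sulfate use, rose by 3.31 ± 0.41 (adjusted p = 0.0108, 8 of 8 fits), at 9.61 to 10.41 against 6.06 to 7.44. After LSU1 was seen, 23 genes of sulfate uptake and assimilation were collected, and 5 of them rose (21.7%, against 1.04% of all genes) and 0 fell, with 18 of 23 positive and a median of 1.06. The median was 1.02 against ML1Y and 1.03 against MG.

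The 5 were the sulfate transporter SULTR1;2 (2.73), the ATP sulfurylase APS1 (2.12), the reductase APR1 (2.22), the serine acetyltransferase SERAT2;1 (2.39) and the methionine lyase MGL (2.64). APR1 stood at 14.06 and 13.77 in FGF, 14.12 and 14 in E1728G, 12.05 and 11.69 in ML1Y, and 11.79 and 11.55 in MG (adjusted p = 0.0111). SULTR1;2 had guard libraries between 11.1 and 12.05 and others between 8.06 and 9.09 (adjusted p = 0.0171). Others did not pass, such as the transporter SULTR1;1 (-0.10, adjusted p = 0.892) and OASA1, a cysteine synthase (-0.79, adjusted p = 0.387).

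Ribosomal protein genes stood on the lower side. In the list of 16 cytosolic ribosomal proteins 0 passed, 15 were negative, and the median was -1.20, with -1.07 against ML1Y and -1.33 against MG. A wider set was collected after this was seen, from the word ribosomal protein in the annotated product. It is not a cytosolic set. The word also took in mitochondrial proteins such as MRPL11 and families shared with elongation factors, such as that of LOS1. Plastid proteins such as RPL3P and PSRP3/2 were in it too, as were genes annotated as 30S or 50S proteins (AT5G24490 and AT1G29040). The plastid proteins left in the set, and their part in its falls, were not counted. Of its 299 tested genes outside the plastid list, 24 fell (8.03%, against 0.787% of all genes) and 0 rose, with a median of -0.77 and 246 negative. Among these falls were those of AT3G24830 of the L13 family (-3.04, adjusted p = 0.0111) and RPL16B (-2.73, adjusted p = 0.0245). RFC3, annotated in a family of elongation factor EF1B and ribosomal protein S6, fell too (-2.92, adjusted p = 0.0213). Copies of ribosomal protein genes are near-identical, so reads may have been divided between them.

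**Figure D5:**
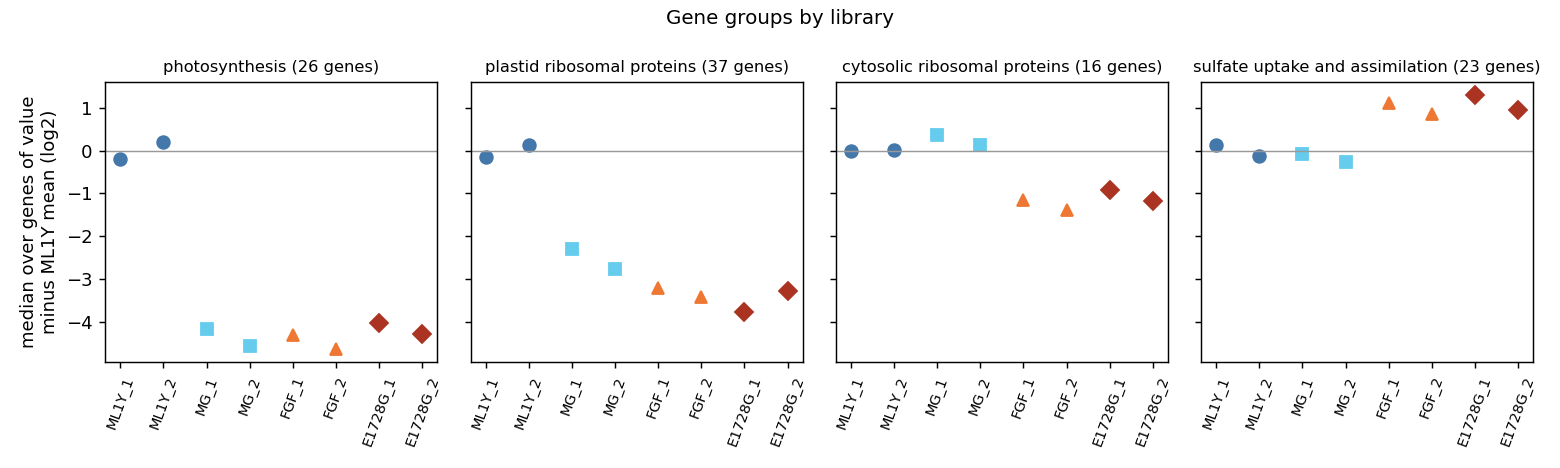
Each point is the median over a gene group of the library's value minus the mean of the 2 ML1Y libraries (log2), for 4 groups. Photosynthesis genes separate ML1Y from the other 6 libraries, at -4.04 to -4.64, while cytosolic ribosomal proteins (-0.91 to -1.39) and sulfate genes (0.85 to 1.3) separate the guard libraries from both ML1Y and MG.

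Plastid genes had negative differences in 2 patterns. Of 26 photosynthesis genes 1 fell and 0 rose in the 2-group fit. All 26 had a negative difference, with a median of -2.09, but this was -4.09 against ML1Y and 0.21 against MG. The summed level of the list (log2 of the sum) was 18.92 to 19.34 in ML1Y, 14.63 to 14.8 in MG, 14.62 to 14.78 in FGF and 14.8 to 15.3 in E1728G. Against ML1Y, where 4.4% of all genes were lower, 25 of the 26 were lower in the guard sorts. Against MG, where 0.863% of all genes were lower, 1 was. That 1 was RBCS2B (AT5G38420), a small subunit of Rubisco, which stood at 7.45 and 7.04 in FGF, 7.04 and 7.92 in E1728G, 13.12 and 13.8 in ML1Y, and 10.29 and 9.68 in MG. It fell by 4.36 ± 0.86 on the log2 scale (adjusted p = 0.0349, 2 of 8 fits, highest 0.0915). Against MG alone it differed by -2.62 ± 0.50 (adjusted p = 0.0368). The other small-subunit genes RBCS1A, RBCS1B and RBCS3B differed from MG by 0.28, 0.66 and 0.23, and reads may be shared among these copies. The part of mesophyll transcripts in the falls against ML1Y was not tested.

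The second pattern was that of plastid ribosomal proteins, 37 genes collected after the calls were seen. All 37 were negative (median -2.07), and 4 fell (10.8%, against 0.787% of all genes) and 0 rose. Their medians were -3.53 against ML1Y and -0.70 against MG, and the median of MG minus ML1Y was -2.3. Against ML1Y 32 of the 37 were lower, beside 4.4% of all genes, and against MG 2 were, beside 0.863%. RPL21C (AT1G35680) fell by 3.54 ± 0.54 (adjusted p = 0.0171, 7 of 8 fits, 0.0664 without E1728G replicate 2), at 4.64 to 5.55 in the guard libraries against 7.37 to 10.12. RPL12-C (AT3G27850) and PRPS20 (AT3G15190) differed by -3.16 and -2.99 (adjusted p = 0.0368 and 0.0182) and passed in 2 and 3 of 8 fits (highest adjusted p 0.103 and 0.0668).

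PORB (AT4G27440), an enzyme of chlorophyll synthesis, fell by 3.15 ± 0.49 (adjusted p = 0.0172, 5 of 8 fits, highest 0.0588), at 4.82 to 6.47 in the guard libraries against 7.87 to 9.62. It differed by -3.59 from ML1Y and -2.72 from MG (adjusted p = 0.00713 and 0.0498). FED A (AT1G60950), a ferredoxin, fell by 2.99 ± 0.64 (adjusted p = 0.0448) but passed in 1 of 8 fits (highest adjusted p 0.131) and not under quantile normalization (adjusted p = 0.0577), and MG at 8.53 and 8.26 lay between the guard libraries and ML1Y at 10.84 and 10.81. It differed by -4.21 from ML1Y (adjusted p = 0.00192) and by -1.78 from MG (adjusted p = 0.0972), where the photosynthesis medians were -4.09 and 0.21. The same order held for SNG1 (AT2G22990), an acyltransferase of sinapate esters, with guard libraries between 6.9 and 7.7, MG at 9.07 and 10.39, and ML1Y at 11.97 and 12.25. SNG1 differed by -3.68 ± 0.67 (adjusted p = 0.0293, 2 of 8 fits, highest 0.0868).

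Other genes on the lower side belonged to varied classes. GRP3S (AT2G05380), a glycine-rich wall protein, stood at 5.35 and 6.33 in FGF, 6.06 and 6.35 in E1728G, 9.73 and 8.93 in ML1Y, and 8.72 and 9.61 in MG. It fell by 3.23 ± 0.40 (9.37-fold, adjusted p = 0.0107, 8 of 8 fits), and ML1Y and MG overlapped. IGMT4 (AT1G21130), a methyltransferase of indole glucosinolates, fell by 3.63 ± 0.53 (adjusted p = 0.0144, 6 of 8 fits, highest 0.0582), at 4.12 to 4.93 against 6.47 to 9.11. CML37 (AT5G42380), a calmodulin-like protein, fell by 3.41 ± 0.53 (adjusted p = 0.0178, 5 of 8 fits, highest 0.0664), at 6.66 to 7.93 against 9.74 to 11.54. BT5 (AT4G37610), a BTB and TAZ domain protein, and WRKY18 (AT4G31800), a defence factor, differed by -3.10 and -2.94 (adjusted p = 0.0267 and 0.0261) and passed in 3 and 1 of 8 fits (highest adjusted p 0.0868 and 0.0876).

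Water channel, wall and auxin genes gave 1 fall per list. PIP2;7 (AT4G35100), a plasma membrane aquaporin, fell by 2.94 ± 0.52 (adjusted p = 0.0267, 2 of 8 fits, highest 0.0868), at 6.92 and 4.71 in FGF and 5.4 and 5.44 in E1728G against 7.79 to 9.19. Of the 13 aquaporins 12 were negative (median -0.87), and the median was -1.79 against ML1Y and -0.03 against MG. The median of MG minus ML1Y was -1.05 in these genes and -4.30 in the photosynthesis genes. PIP2;7 differed by -3.46 from ML1Y (adjusted p = 0.0103) and by -2.41 from MG (adjusted p = 0.0826). The expansin EXPA10 (AT1G26770) fell by 1.86 ± 0.36 (adjusted p = 0.0342, 1 of 8 fits, highest 0.0934), among 10 wall genes with a median of -0.14. IAA2 (AT3G23030), an auxin response repressor, fell by 2.86 ± 0.57 (adjusted p = 0.0361, 2 of 8 fits, highest 0.112), among 16 auxin genes with a median of -0.48. IAA2 was at 7.44 and 7.09 in FGF and at 5.32 and 5.6 in E1728G, all under the 8.23 to 9.76 of the other side.

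Lists that follow handling or other cell types had few calls. All 12 heat shock genes were positive (median 1.25) and 0 passed. The median was 2.02 against ML1Y, where HSP22.0 and HOP3 were higher (2.69 and 2.86, adjusted p = 0.0213 and 0.02), beside 1.32% of all genes. Against MG, where 0.873% of all genes were higher, the median was 0.32 and 0 passed. MG was above ML1Y by a median of 1.53. Their summed level was 17.86 to 18.57 in ML1Y, 20.09 to 20.83 in FGF and 17.98 to 20.54 in E1728G. MG, from 19.29 upwards, reached above the lowest FGF library, so the guard libraries overlapped both backgrounds. Of 15 wound and touch genes 1 rose and 0 fell (median -0.23). It was CYP94B3 (AT3G48520), a hydroxylase of the jasmonate signal, at 12.99 and 11.51 in FGF and 13.95 and 13.69 in E1728G against 9.11 to 10.95 (difference 2.88 ± 0.62, adjusted p = 0.0473, 1 of 8 fits, highest 0.143). Its call was lost under quantile normalization (adjusted p = 0.0687) and with no filter on low values (0.0525). In the lists of starch and sugar (12 tested), epidermis and cuticle (23), trichome (8) and vasculature (12) 0 passed in either direction, with medians of -0.86, -0.49, 0.03 and -0.27. The summed level of the cuticle list was 13.03 to 13.42 in ML1Y, 14.21 to 15.49 in MG and 13.84 to 14.15 in the guard sorts. The vascular sum was 9.57 to 9.59 in ML1Y and 8.83 to 9.1 in the other 6 libraries. The trichome regulator GL1 lay between 3.47 and 4.23 in all 8 libraries, near the floor, and ETC1 did not reach the floor. SUC2, a phloem sucrose carrier, lay between 5.05 and 7.02. The part of these cells in the calls was not tested.

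Setting each background apart asked whether a difference held against both. With a mean for each line, 385 genes were higher (1.32%) and 1279 lower (4.4%) in the guard sorts than in ML1Y, together 5.72%. The lower ones included 25 of the 26 photosynthesis genes, whose summed level was 18.92 to 19.34 in ML1Y and 14.62 to 15.3 elsewhere, and their part in the count was not tested. Against MG 254 were higher (0.873%) and 251 lower (0.863%), together 1.74%. The 2 backgrounds also differed from each other, with 100 genes higher in MG (0.344%) and 551 higher in ML1Y (1.89%), together 2.24%. In both contrasts, which share the guard libraries, 138 genes were higher (0.474%) and 64 lower (0.22%). In the 2-group fit the guard mean lay above each of the 2 background means for all 303 genes called higher, and below each of them for all 229 called lower. Separation of the 4 and 4 libraries fixes this for 302 of the 303 and for all 229. Of these calls, 131 of the 303 and 62 of the 229 also passed in both contrasts. Among the 229, MG was 1 or more below ML1Y for 44 genes and 1 or more above it for 13.

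The same genes can be read in each background. TGG1 was 3.65 above ML1Y and 3.37 above MG, and KAT2 3.34 and 3.18 above them, each with an adjusted p under 0.05 in both contrasts. AO1 was 2.87 above ML1Y and 4.59 above MG (adjusted p = 0.00621 and 0.00695). On the lower side CYCD3;1 differed by -2.78 from ML1Y and -3.39 from MG (adjusted p = 0.00318 and 0.0084). SNG1 differed by -4.87 from ML1Y (adjusted p = 0.00192) and by -2.49 from MG (adjusted p = 0.0542), so it passed against ML1Y alone. The same held for ER, CYCD3;2, PYL2, ABA2, KRP6, RPL12-C, PRPS20, EXPA10 and CYCB2;4, with adjusted p between 0.0513 and 0.102 against MG. SCAP1 passed against MG alone (adjusted p = 0.0326, and 0.0549 against ML1Y). AHA1 passed against neither (adjusted p = 0.0591 against ML1Y and 0.0535 against MG).

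Between the 2 guard sorts, 0 genes passed in the limma test of FGF against E1728G, with 1402 at an unadjusted p under 0.05. Without E1728G replicate 2 that contrast called 93 genes. Taken singly, FGF had 126 genes higher (0.433%) and 146 lower (0.502%) than both backgrounds together (0.935% in all). E1728G had 302 higher (1.04%) and 388 lower (1.33%), or 2.37% in all. The median absolute difference between FGF and E1728G was 0.40 over the genes called higher, 0.31 over those called lower and 0.35 over all genes. FAMA, higher in FGF by 3.23 ± 0.56, had an adjusted p of 0.298 in that contrast.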

How the data were processed

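RNA was sequenced from sorted protoplasts. The authors deposited 1 table of log2 values per gene and library. Per the submitters' processing notes, Bowtie2, DESeq2 and the TAIR10 build were used. The counting tool, its annotation and strand setting and the log transformation were not stated in any source used here. The depth of each library is unknown, so no count test or counting interval was possible. The label descriptions speak of a microarray while the titles say RNA-seq.

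The deposited log2 values were used unchanged. Genes at about 10 or more on the linear scale in at least 2 of the 8 libraries were fitted with limma 3.58.1 in R 4.3.3, with a mean-variance trend, 4 libraries against 4, and Benjamini-Hochberg adjustment at 0.05. The design with a mean per line gave the contrasts against ML1Y, against MG and between guard sorts. Its p-values measure the spread within lines and not that between the lines of a side. The procedure was also run on simulated data, in which all libraries varied independently and the lines of a side did not differ. That run therefore cannot show how often the 2-group fit calls genes falsely in these data. Named genes were those behind the marker lines and SPCH, the 15 largest called and separated changes in each direction with a symbol and a mean on the higher side at or above the median of all gene means, and up to 4 called members of each list. Others were chosen after their values were seen. Some genes are not reported here. The members and lists were chosen with earlier results of these data known. Symbols and products came from RefSeq TAIR10.1. Alternatives were quantile normalization, centring, other floors, 1 added before the log, no trend, a replicate block, line means, and leaving out libraries or lines.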

Additional observations from a re-analysis of the deposited data

Results flagged for a closer look

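In 4 of 94 groups of 4 libraries, 1 library stood apart from the other 3 by Dixon's criterion, and chance flags about 1 in 20 such groups. UGT73D1 was at 13.86 in E1728G replicate 1, above the other guard libraries at 10.76 to 10.99. CHIA was at 9.69 in the same library, above 7.29 to 7.7. SUS3 was at 7.72 in MG replicate 1, below the other ML1Y and MG libraries at 8.75 to 8.84. BT5 was at 12.85 in MG replicate 2, above 11.36 to 11.57.

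The 3 SSY libraries, sorted on SPCHp::SPCH-YFP, entered none of the comparisons above. For 7 of the 15 genes with the largest rises, even the lowest SSY library lay above all 4 ML1Y and MG libraries. Those lowest values were 18.64 for TGG1, 12.59 for TGG2, 9.93 for GSTU1, 9.29 for SUS3, 9.58 for SRO2, 11.36 for ABCB4 and 7.77 for KAT2. For 12 of the 15 largest falls every SSY library lay below all 4 of them. The 15 genes of each direction had been chosen for lying far from these same 4 libraries, and the share over all genes was not counted. So these counts give no result about the genes, and the differences were not tested.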

How the results depend on the processing

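The sign of each of the 532 calls held in all 21 alternatives (for the 502 of them tested at a floor of 50). Where libraries or lines were left out, or 1 was added before the log, this was fixed in advance for the 531 calls with separated sides. The other floors, the line means, the replicate block and the fit without a trend left each difference itself unchanged. So only quantile normalization and centring could have turned the sign of a separated gene. The 2-group counts of 303 higher and 229 lower became 538 and 859 with a mean for each of 4 lines, and 560 lower with 5 lines and 11 libraries. Without line ML1Y they were 85 and 85, without MG 473 and 1536, without FGF 4 and 0, and without E1728G 1 and 0. Leaving out 1 library gave 34 to 321 higher and 17 to 565 lower. The replicate block gave 180 and 113. Deviations of libraries with the same number correlated between -0.0806 and 0.0349, so the numbers give no pairing. Against each background, leaving out 1 library gave 7 to 221 higher and 1 to 96 lower, and a floor of 50 gave 217 and 107. For FGF these were 1 to 140 and 0 to 317, and 201 and 232 at that floor. For E1728G they were 4 to 529 and 0 to 586, and between the guard sorts 0 to 93. With 7 libraries 1861 to 2470 genes were separated higher and 1637 to 2540 lower, since fewer libraries must be kept apart. SPCH (AT5G53210) reversed to -0.15 without line FGF, and the median of the proton pump list to -0.01 under quantile normalization. The other causes were not tested. With 1 library of a line left, that library is assumed to vary like the rest. Unknown depth limits what can be said of genes near the floor.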

Other observations

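Some further called genes, chosen after their values were seen, belonged to groups not listed above. CHX20 (AT3G53720), a cation/proton exchanger of guard cells, stood at 15.73 and 15.07 in FGF, 16.75 and 15.97 in E1728G, 13.9 and 12.79 in ML1Y, and 12.37 and 12.15 in MG. It differed by 3.08 ± 0.45 (log2, SE, limma adjusted p = 0.0148), with no overlap between the sides. NHX2, a vacuolar sodium or potassium exchanger, differed by 2.41 ± 0.48 (adjusted p = 0.0357). The cytosolic sugar enzymes PFK3, PFK7 and GAPC1 differed by 2.70, 2.47 and 2.09, and trehalase TRE1 by 3.09. TGG3, annotated as a thioglucosidase and related to TGG1 and TGG2, differed by 2.52 ± 0.37 (adjusted p = 0.0148), and reads may be shared among the copies. The largest called rise of all was AT4G24340, annotated as a phosphorylase superfamily protein, at 4.21 ± 0.60 (adjusted p = 0.0132).

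Among the called falls, 5 more genes were picked after their values were seen, and the other genes of their pathways were not counted. CAC1, a subunit of acetyl-CoA carboxylase, differed by -2.27, the enoyl reductase MOD1 by -2.42 and the acyl carrier protein ACP2 by -2.07. LPD1 and EMB3003, of the pyruvate dehydrogenase complex, differed by -2.07 and -2.64. Their adjusted p lay between 0.0111 and 0.04. Against MG alone they differed by -2.48, -2.19, -2.16, -2.27 and -2.45 in the same order, and of these ACP2 and EMB3003 passed (adjusted p = 0.0424 and 0.0266).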
